A study of Mus musculus with 13 samples.

Results

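Limb buds labelled as Sox9 mutants were compared between embryonic days E11.5 and E12.5, the day on which cartilage condensations of the mouse limb normally turn into overt cartilage. The comparison used every library of the study labelled as a Sox9 mutant, 4 at E11.5 and 3 at E12.5, which is 7 of 13 RNA-seq libraries, and all 12880 genes of the deposited expression table. The E11.5 mutants were Sox9-/- embryos, here called Sox9null. The E12.5 mutants were Sox9fl/fl embryos with Prx1CreER, here called Sox9cKO; this Cre is driven by a Prx1 promoter and enhancer active in limb bud mesenchyme, so cells of muscle, blood, vessel, nerve and ectoderm origin are not its targets. Controls were 3 Sox9fl/- embryos at E11.5 and 3 Sox9fl/fl embryos at E12.5. The kind of mutation changed together with the age, so an effect of age and an effect of the allele cannot be told apart. The controls differed likewise, since those at E11.5 carried 1 null allele and those at E12.5 none. Time and dose of Cre induction, strain, litter and the choice of fore- or hindlimbs appear in none of the labels. Each library is described as a biological replicate, and p-values measure the spread between these libraries.

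SOX9 is a transcription factor of skeletal progenitors and chondrocytes, and with SOX5 and SOX6 it drives the genes of cartilage matrix, among them those for collagens II, IX and XI, aggrecan and matrilins. In the limb bud of this age, signals from the apical ridge (FGF) and from the posterior mesenchyme (SHH) pattern the mesenchyme. Its core cells condense into cartilage and joint interzones, while muscle precursors that have migrated in from the somites begin to differentiate. The comparison describes which of these programmes differed between the mutant groups of the 2 ages.

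Expression is given as the authors' normalized RPKM, which scales reads by gene length and library size (NRPKM), and differences are E12.5 minus E11.5 on the log2(NRPKM + 1) scale, which understates changes of low genes. Library medians were 14.7 to 15.6 NRPKM in Sox9null and 16.1 to 16.2 in Sox9cKO, and the depth of the libraries is unknown. The 7 E11.5 libraries fell into 2 sets, which mixed genotypes: Sox9null replicates 3 and 4 stood with 2 controls, and replicates 1 and 2 with the other control. Pearson r of log2 values across genes was 0.979 to 0.989 within a set and 0.938 to 0.966 between sets. Among the E12.5 mutants, replicate 3 was closest to Sox9null, with a mean r of 0.947 against 0.934 and 0.929 for replicates 1 and 2. Y-linked genes were expressed in Sox9null replicate 3 and Sox9cKO replicate 3 and were near 0 in the other 5 mutant libraries. The limb mesenchyme list had 38 of its 39 genes in the table, and the hindlimb genes were well expressed, with Pitx1 at 64.5 to 91.5 and Tbx4 at 43.3 to 54.2 NRPKM over the 7 mutant libraries. The limb identity list had 10 of its 12 genes in the table, and its forelimb gene Tbx5 was not among them. The table holds only genes with a mean of at least 3 NRPKM in at least 1 group. No gene of a 10-gene liver list was in the table. Because whole limb buds were sequenced, fewer cells of a type and less RNA per cell cannot be told apart.

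With limma and Benjamini-Hochberg adjustment over all genes, 2539 genes (19.7%) had an adjusted p under 0.05 and are named here as called; 1865 (14.5%) were higher and 674 (5.23%) lower in Sox9cKO. Genes that also differed by at least 1 on the log2 scale numbered 141 (1.09%), of which 97 (0.753%) were higher and 44 (0.342%) lower. In 4311 genes (33.5%) the 3 and the 4 libraries did not overlap, 4690 genes (36.4%) had an unadjusted p under 0.05, and 61.7% of all genes were above 0. The share of called genes that were higher was 73.5% on the values as deposited, 55.6% after quantile normalization and 45.3% with each library centred on its median, although the median difference of all genes was only 0.06. Of the 97 large rises 72 were in protein-coding genes, whereas only 5 of the 44 large falls were; 21 of the falls were in small RNA genes and 8 in pseudogenes. Leaving out Sox9cKO replicate 3 left 1703 called genes, 1281 higher (9.95%) and 422 lower (3.28%). Leaving out replicate 1 left 976, 682 higher and 294 lower, and leaving out replicate 2 left 708, 529 higher and 179 lower. List counts below should be read beside these counts over all genes. Against Sox9null libraries of the set of 4 alone there were 4498 called genes, 2443 higher and 2055 lower. Against those of the set of 3 alone there were 7502, 5453 higher and 2049 lower. In 1451 of the 2539 called genes (57.1%), replicate 3 was the Sox9cKO library nearest to the E11.5 side.

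Sox9 RNA itself was higher in the E12.5 mutants. It was listed at 20.6, 25.7, 25.04 and 22.7 NRPKM in the 4 Sox9null libraries and at 35.1, 28.7 and 32.2 in the 3 Sox9cKO libraries. The groups did not overlap. The difference was 0.43 (SE 0.11, adjusted p = 0.0214, limma), and it no longer passed without Sox9cKO replicate 3 (adjusted p = 0.0587; range over 20 alternatives 0.00386 to 0.0922). An exact two-sided permutation test over the 35 splits gave p = 0.0571, the smallest this design allows. Control means were 40.7 NRPKM at E11.5 and 36.2 at E12.5. The table gives 1 value for the whole gene, chr11:112782224-112787760 on the plus strand of GRCm38, so reads from deleted and retained exons are not separated. The value does not measure functional SOX9 and could not be used to check the deletion in the libraries labelled Sox9cKO.

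A long non-coding RNA gene next to Sox9 was lower in the E12.5 mutants. Gm11681, at chr11:112792731-112799008 on the minus strand, lies 4970 bases beyond the 3′ end of Sox9. It was at 25.2, 24.5, 16.01 and 16.2 NRPKM in Sox9null and at 14.99, 11.0 and 8.43 in Sox9cKO. E11.5 controls had 7.96, 15.6 and 10.5, which overlapped Sox9cKO, and E12.5 controls had 0, 0 and 0.201. Both mutant groups and the E11.5 controls were thus all above the E12.5 controls. Age and alleles changed together in these groups and cannot be told apart. The mutant change was -0.79 (SE 0.24, adjusted p = 0.0379, limma; 0.139 without Sox9cKO replicate 3), and it differed from that of the controls by 2.70 (adjusted p = 0.0254; range over alternatives 0.00037 to 0.94).

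About as many genes of cartilage matrix were called higher as were not called, and the rises included the genes for collagen IX, which coats the surface of collagen II fibrils. Of 25 measured genes of the cartilage list, 12 were called higher, against 14.5% of all genes, 1 was called lower, and 12 were not called; the list's median was 0.50 against 0.06 over all genes. Col9a3 was at 2.08, 2.78, 2.42 and 2.04 NRPKM in Sox9null and at 19.95, 11.7 and 15.4 in Sox9cKO. Every Sox9cKO library was above every Sox9null library, by 2.30 in the mean (SE 0.21, adjusted p = 0.000215). Col9a2 went from 5.80, 9.21, 5.73 and 5.90 NRPKM to 32.5, 21.8 and 24.6, a difference of 1.84 (SE 0.21, adjusted p = 0.000796). Col9a1, which encodes another chain of this collagen, was already high at E11.5 and rose from 21.9 ± 2.29 (SD, n = 4) to 33.7 ± 5.06 (SD, n = 3), a difference of 0.60.

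Genes for collagens II and XI, which build the fibril itself, were also called higher. Col2a1 was at 38.4, 36.8, 27.0 and 28.1 NRPKM in Sox9null and at 50.9, 40.3 and 47.1 in Sox9cKO. These ranges were close but did not overlap, and the difference of 0.50 (SE 0.14, adjusted p = 0.0266) was not called without Sox9cKO replicate 3 (0.0749; range over alternatives 0.000211 to 0.109). Col11a1 rose by 0.44, from 16.01 to 21.9 NRPKM. Col11a2 rose by 0.94, from 1.77 to 4.56 NRPKM, with adjusted p = 0.0273, and 0.0646 without Sox9cKO replicate 3 (range 0.0124 to 0.118).

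The matrix genes Lect1 and Matn4 were below 1 NRPKM in every Sox9null library and above it in every Sox9cKO library. Lect1, which encodes the secreted inhibitor of angiogenesis chondromodulin, was at 0.439, 0.547, 0.444 and 0.451 NRPKM in Sox9null and at 7.16, 3.24 and 6.08 in Sox9cKO (difference 2.09, SE 0.24, adjusted p = 0.000796). Matn4, a matrilin that links matrix components, went from 0.158, 0.603, 0.178 and 0.111 to 8.97, 1.87 and 2.86 NRPKM (1.94, SE 0.39, adjusted p = 0.00845). The 3 Sox9cKO libraries differed among themselves, replicate 1 being the highest for both genes. Papss2, which makes the sulfate donor for proteoglycans, was at 4.35, 4.67, 4.01 and 3.27 NRPKM in Sox9null and at 15.3, 9.21 and 8.32 in Sox9cKO (1.20, SE 0.26, adjusted p = 0.0104). Smaller rises were those of Pcolce2 (0.64), Wwp2 (0.45), the host gene of the cartilage microRNA miR-140, and Chst11 (0.36), a chondroitin sulfotransferase. Hapln1, the link protein of the aggrecan complex, was the called fall, from 16.5 ± 2.81 (SD, n = 4) to 11.7 ± 1.30 NRPKM (SD, n = 3), a difference of -0.46 (adjusted p = 0.0374).

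Other cartilage genes stayed low. Acan, the gene of aggrecan, was at 0.129, 0.129, 0.137 and 0.104 NRPKM in Sox9null and at 0.923, 0.091 and 0.225 in Sox9cKO, with overlapping ranges and adjusted p = 0.518. Matn1 was at 0, 0, 0.126 and 0.064 and then at 0.963, 0.042 and 0.599 NRPKM (adjusted p = 0.341). Replicate 1 was again the highest of the Sox9cKO libraries for both. Mia1, a small secreted cartilage protein, was at 0.669, 1.07, 1.11 and 1.15 NRPKM in Sox9null and at 1.21, 1.01 and 1.15 in Sox9cKO (0.09, SE 0.13, adjusted p = 0.622). The signs of Acan, Matn1, Mia1 and Extl1 depended on scaling: after quantile normalization their differences were -0.39, -0.21, -0.55 and -0.22, and that of Mia1 was called lower (adjusted p = 0.0257; range over alternatives 0.0257 to 0.977). In the E12.5 controls the means were 7.40 NRPKM for Acan, 13.9 for Matn1 and 5.36 for Mia1. Cytl1 went from 0.396 to 2.33 NRPKM in the mutant means without passing the test (adjusted p = 0.0502), and Extl1 from 1.25 to 1.74 (adjusted p = 0.199).

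The cartilage count changed when 1 library was left out. It was 5 genes higher without Sox9cKO replicate 1, 11 without replicate 2 and 11 without replicate 3. Over all 12880 genes the higher calls went from 1865 to 682, 529 and 1281 in the same fits. The list's median was 0.39, 0.54 and 0.48 in these fits. After quantile normalization the cartilage count was 10 higher and 2 lower. Replicate 3, nearest to E11.5 for most called genes, held the lowest Sox9cKO value in only 4 of the 12 cartilage genes called higher. The plot of cartilage genes by library shows the steep and the flat members side by side.

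**Figure D1:**
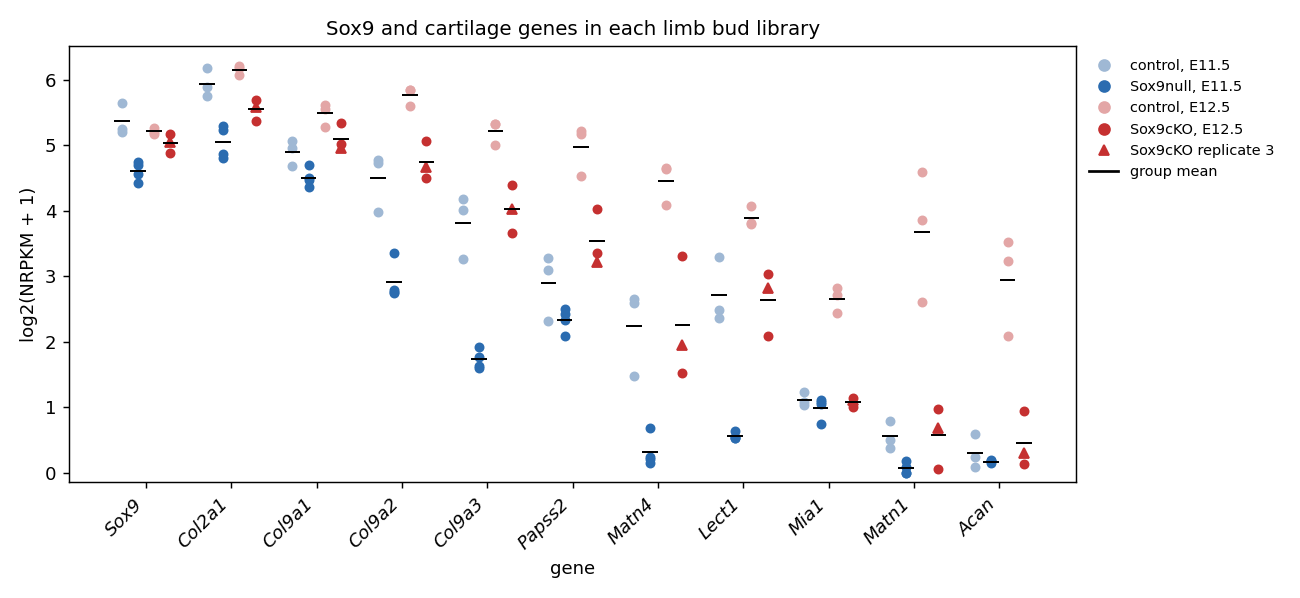
Each point is 1 library's log2(NRPKM + 1) for Sox9 and 10 cartilage genes, in controls and Sox9-deficient limb buds at both ages; triangles are Sox9cKO replicate 3 and bars are group means. Col9a3, Col9a2, Lect1, Matn4 and Papss2 rose between the mutant groups, while Mia1 was at 0.999 and 1.12 NRPKM in the 2 mutant means.

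Partner genes of SOX9 moved unevenly. Of 8 measured SOX genes of skeletal cells, Sox6, Sox10 and Sox9 were called higher and Sox11 lower (median 0.23). Over all genes 14.5% were called higher and 5.23% lower. Sox6 alone was called without Sox9cKO replicate 3, and Sox10 is also counted in the nerve and Schwann cell list. Sox6 was at 4.41, 4.11, 3.47 and 3.51 NRPKM in Sox9null and at 10.7, 6.01 and 8.67 in Sox9cKO, with no overlap (0.93, SE 0.22, adjusted p = 0.0155). Sox5, its close relative, was at 4.87, 4.49, 3.51 and 3.42 and then at 5.78, 4.05 and 5.73 NRPKM, with overlapping ranges (0.28, adjusted p = 0.232). Sox8, a SOXE gene like Sox9 and Sox10, was at 10.1 ± 1.29 (SD, n = 4) and 11.49 ± 1.75 NRPKM (SD, n = 3) and was not called (adjusted p = 0.311). Sox10, a neural crest and Schwann cell regulator, rose from 0.722 to 1.71 NRPKM, and its difference was -0.00375 after quantile normalization. Nkx3-2, a repressor that acts in early chondrogenesis, rose from 1.93, 4.33, 1.19 and 0.771 NRPKM to 12.6, 10.6 and 4.71 (1.79, SE 0.50, adjusted p = 0.0288).

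Some joint and growth factor genes rose as well. In the joint interzone list, 10 of 18 measured genes were called higher, against 14.5% of all genes, and none lower (median 0.36). The count was 11 without Sox9cKO replicate 3, 7 without replicate 1 and 6 without replicate 2. Gdf5, the growth factor that marks interzones, was at 7.34, 12.1, 10.7 and 10.5 NRPKM in Sox9null and at 27.6, 25.6 and 16.1 in Sox9cKO (1.1, SE 0.19, adjusted p = 0.00457). Nog, the BMP inhibitor noggin, was at 1.46, 1.42, 1.74 and 1.43 and then at 5.73, 4.61 and 3.16 NRPKM (1.11, SE 0.20, adjusted p = 0.00575). Replicate 3 was the lowest Sox9cKO library for both, and still above all Sox9null libraries. The transcription factor gene Erg rose by 0.92, the lysophospholipase gene Enpp2 (autotaxin) by 0.88 and the heparan sulfatase gene Sulf1 by 0.73.

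In the BMP and GDF list, 12 of 35 genes were called higher, against 14.5% of all genes, and 1 lower. The list's median of 0.08 was close to that of all genes. The members that rose were mostly secreted modulators: Bmper by 1.57, from 2.99 ± 1.00 (SD, n = 4) to 10.7 ± 2.17 NRPKM (SD, n = 3), the activin antagonist Fst by 0.91 and Gdf10 by 0.81, beside Nog and Gdf5. The count was 14 without Sox9cKO replicate 3, 6 without replicate 1 and 7 without replicate 2. In the WNT list, 9 of 43 genes were called higher, against 14.5% of all genes, and 1 lower, against 5.23%. The median was 0.05, and -0.02 with median centring. Of these genes 8 or 9 were higher without any 1 of the Sox9cKO libraries. Fzd9, a WNT receptor, stood out among them, at 0.784, 0.910, 0.933 and 1.06 NRPKM in Sox9null and 4.31, 3.39 and 3.24 in Sox9cKO, without overlap (1.27, SE 0.13, adjusted p = 0.000388). The WNT antagonist gene Dkk2 rose from 13.4 to 24.5 NRPKM (0.82), and Sfrp2 from 35.2 to 48.0 (0.43).

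In the perichondrium and osteoblast list, 6 of 16 genes were called higher, against 14.5% of all genes, and 1, Col1a2, lower (median 0.17). Pthlh, the hormone that delays chondrocyte hypertrophy, was at 0.488, 1.08, 0.746 and 0.957 NRPKM in Sox9null and at 5.89, 4.36 and 1.60 in Sox9cKO (1.34, SE 0.30, adjusted p = 0.0122). Replicate 3 was well below the other two and still above all Sox9null libraries. Foxc1, a mesenchymal forkhead factor, rose from 9.85 ± 1.28 (SD, n = 4) to 18.2 ± 1.54 NRPKM (SD, n = 3), a difference of 0.82. Mef2c, a regulator shared by muscle and cartilage, rose by 0.92 and Spp1 (osteopontin) by 0.75. The count was 6 without Sox9cKO replicate 3, 3 without replicate 1 and 2 without replicate 2.

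Of the lists, structural muscle held the most rises. Of 29 measured genes for sarcomere and muscle membrane proteins, 25 were called higher, against 14.5% of all genes, and none lower (median 1.22). Myh3, embryonic myosin heavy chain, was at 1.35, 3.63, 0.514 and 1.21 NRPKM in Sox9null and at 17.6, 17.8 and 6.14 in Sox9cKO (2.47, SE 0.55, adjusted p = 0.0118). Acta1, skeletal alpha-actin, was at 1.8, 2.41, 1.03 and 1.34 and then at 16.6, 17.2 and 4.52 NRPKM (2.22, SE 0.43, adjusted p = 0.00751). Actc1, the cardiac-type actin that embryonic muscle also uses, went from 7.74, 18.3, 8.61 and 6.04 to 44.4, 45.7 and 27.9 NRPKM (1.93, SE 0.41, adjusted p = 0.00984). No group overlapped for these genes. In each of them replicate 3 was the lowest Sox9cKO library and replicate 2 the highest Sox9null library.

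The regulators of muscle moved less than the structural genes. Of 17 measured, 9 were called higher, against 14.5% of all genes, and 1 lower (median 0.55). Myog, which starts terminal differentiation, was at 12.0, 19.9, 14.6 and 11.8 NRPKM in Sox9null and at 34.7, 41.3 and 29.1 in Sox9cKO (1.23, SE 0.19, adjusted p = 0.00301). Myod1, the determination factor, was at 12.8, 19.4, 14.3 and 9.86 and then at 19.03, 24.2 and 19.3 NRPKM (0.56, SE 0.18, adjusted p = 0.0473), and the ranges overlapped. Tmem8c, the fusion protein myomaker, rose by 1.02 and Smyd1, a muscle methyltransferase gene, by 1.76. Pax3, which marks the migrating precursors, fell from 5.88, 4.56, 6.00 and 5.45 to 1.62, 2.94 and 4.24 NRPKM, a difference of -0.77 (SE 0.25, adjusted p = 0.0474; range over alternatives 0.0175 to 0.19). Genes for the neuromuscular junction were among the rises, with Rapsn at 1.22 and Chrng at 1.06. The 9 rises were 8 without Sox9cKO replicate 3, 6 without replicate 1 and 5 without replicate 2.

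Summed over the 29 structural muscle genes, Sox9null libraries reached 144.1 to 186.9 NRPKM, Sox9cKO replicates 1 to 3 reached 366.4, 382.5 and 239.4, and E12.5 controls 389.9 to 548.0. The rise was called for 25 genes without replicate 3, 13 without replicate 1 and 10 without replicate 2. Replicate 3 gave the lowest Sox9cKO value in 24 of the 25 genes; how far its low muscle signal bears on other differences was not tested.

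Because the actin genes rose together, the 250 bases before their start sites are printed, from RefSeq promoters on GRCm38.p6. Capitals mark a CArG box (CC, then 6 bases of A or T, then GG), the site type bound by serum response factor, and CAGCTG, an E-box of the kind bound by myogenic bHLH factors; both strands were searched. The Acta1 stretch lies at chr8:123894776-123895025 and that of Actc1 at chr2:114052876-114053125, both on the minus strand.
Acta1: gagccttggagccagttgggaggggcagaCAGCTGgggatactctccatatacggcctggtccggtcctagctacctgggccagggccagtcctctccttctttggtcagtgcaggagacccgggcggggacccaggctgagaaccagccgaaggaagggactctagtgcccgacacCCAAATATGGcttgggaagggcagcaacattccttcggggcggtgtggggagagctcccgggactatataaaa
Actc1: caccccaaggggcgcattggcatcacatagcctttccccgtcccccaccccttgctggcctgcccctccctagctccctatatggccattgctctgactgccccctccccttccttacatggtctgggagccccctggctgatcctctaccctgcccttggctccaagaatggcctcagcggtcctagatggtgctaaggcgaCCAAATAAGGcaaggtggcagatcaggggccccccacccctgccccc
The Acta1 stretch held a CArG box at -73 to -64 and CAGCTG at -221 to -216 from the start site, and the Actc1 stretch a CArG box at -47 to -38. Of the 25 risen structural muscle genes, 22 had a promoter in the RefSeq table, with 24 windows of this length; 4 genes (Acta1, Actc1, Myom1, Myl9) held a CArG box and 12 held CAGCTG. Among all 32851 such windows, 1.47% held a CArG box and 13% CAGCTG. For the cartilage genes called higher, 10 of 12 had a promoter there; none held ACAATG and 1, Pcolce2, held ACAAAG, motifs of the SOX type present in 10.7% and 16.5% of all windows. A match describes letters in a window and is not a measured binding site.

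**Figure D2:**
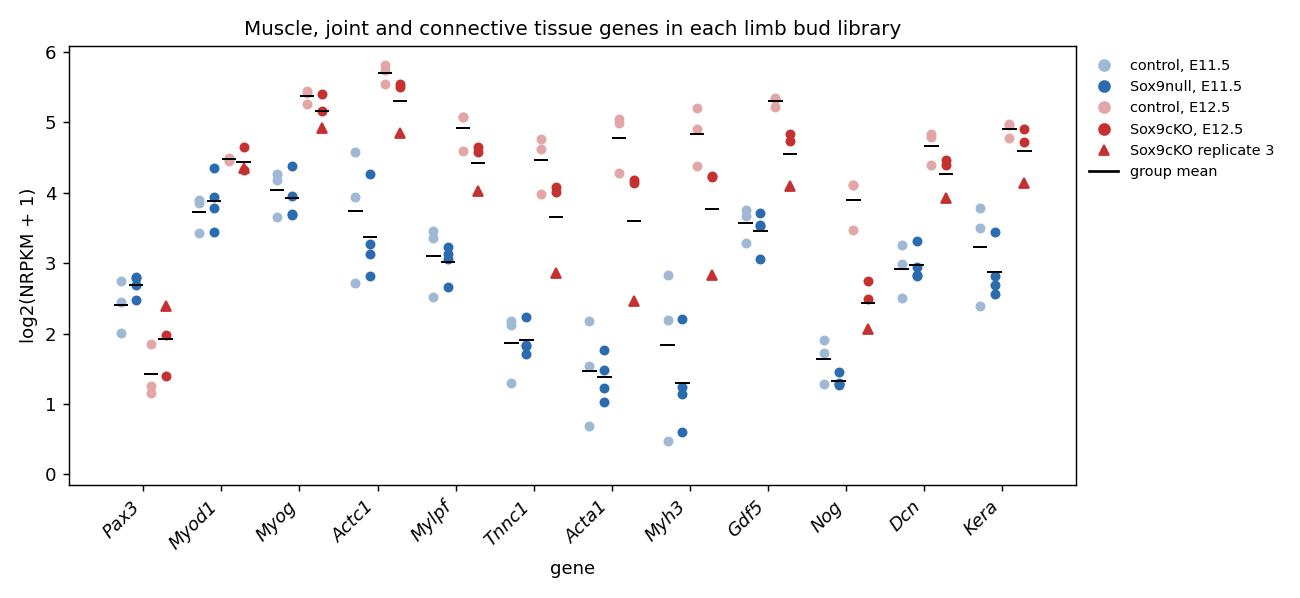
Each point is 1 library's log2(NRPKM + 1) for muscle, joint and connective tissue genes, with Sox9cKO replicate 3 as triangles and group means as bars. In the muscle genes from Actc1 to Myh3 replicate 3 lay between the Sox9null libraries and the other 2 Sox9cKO libraries; for Myh3 it was at 6.14 NRPKM against 17.6 and 17.8.

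Connective tissue genes rose in part. In the tendon and connective tissue list, 9 of 28 genes were called higher, against 14.5% of all genes, and 1, Col1a2, lower (median 0.25). Kera, the corneal and tendon proteoglycan keratocan, was at 4.93, 9.85, 6.05 and 5.44 NRPKM in Sox9null and at 28.9, 25.4 and 16.6 in Sox9cKO (1.71, SE 0.31, adjusted p = 0.00546). Dcn, decorin, was at 6.11, 8.93, 6.67 and 6.06 and then at 20.1, 21.03 and 14.2 NRPKM (1.29, SE 0.20, adjusted p = 0.00301). Replicate 3 was the lowest of the 3 Sox9cKO libraries in both, and in all 9 called rises. Lox, the collagen crosslinking enzyme, rose by 1.06, the tendon factor gene Mkx by 0.60 and Col6a1 by 0.66. Col1a2 was at 46.7 ± 5.31 (SD, n = 4) and 38.4 ± 1.98 NRPKM (SD, n = 3), a difference of -0.27. The list's rises numbered 11 without Sox9cKO replicate 3, and 17 against Sox9null libraries of the set of 4 but 7 against those of the set of 3. Over all 12880 genes the rises numbered 1281, 2443 and 5453 in these fits. Outside that list, Col8a1 rose from 1.15 to 6.29 NRPKM (1.77) and Mgp, an inhibitor of calcification, from 2.81 to 9.56 (1.45).

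Macrophage genes were called higher in part. In the macrophage list, 13 of 22 measured genes were called higher, against 14.5% of all genes, and none lower (median 0.49). Fcrls, a microglia and macrophage receptor, was at 2.09, 2.37, 2.62 and 3.31 NRPKM in Sox9null and at 8.62, 8.71 and 4.11 in Sox9cKO (1.13, SE 0.21, adjusted p = 0.00612). Emr1, which encodes F4/80, was at 1.20, 1.53, 1.88 and 1.64 and then at 4.75, 5.23 and 3.15 NRPKM (1.06, adjusted p = 0.00281). The complement gene C1qb and the fractalkine receptor gene Cx3cr1 rose by 0.89 and 0.80, and Csf1r was not called (0.45, adjusted p = 0.0522). In each of the 13 risen genes replicate 3 was the lowest Sox9cKO library. The count was 12 without it, 5 without replicate 1 and 4 without replicate 2. The macrophage rises numbered 4 in the fit to the 7 mutant libraries alone. They numbered 9 against Sox9null libraries of the set of 4 and 17 against those of the set of 3. Over all 12880 genes the rises numbered 683, 2443 and 5453 in these fits. Summed over the list, Sox9null reached 128.4 to 184.0 NRPKM, against 188.8 in Sox9cKO replicate 3 and 244.0 and 249.1 in the other 2.

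Nerve and Schwann cell genes were called higher in 8 of 14 measured members, against 14.5% of all genes, and lower in none (median 0.60). Ednrb, a neural crest receptor gene, was at 1.89, 1.43, 1.07 and 1.804 NRPKM in Sox9null and at 4.499, 6.99 and 4.07 in Sox9cKO (1.26, SE 0.21, adjusted p = 0.00412). Gfra3 rose by 1.01, the Schwann cell receptor gene Erbb3 by 0.68 and the neuronal tubulin gene Tubb3 by 0.65, from 13.5 ± 2.20 (SD, n = 4) to 21.5 ± 0.76 NRPKM (SD, n = 3). The count was 8 without replicate 3 and 5 without replicate 2, and 5 after quantile normalization.

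The erythroid and endothelial lists had shares called higher near the 14.5% of all genes. Of 27 erythroid genes 4 were called higher, among them Trim10, Epb4.2 and Fech, and none lower (median 0.22), and the count was 0 without Sox9cKO replicate 1, 1 without Sox9cKO replicate 2 or Sox9null replicate 2, and 7 and 8 without Sox9null replicates 3 and 4. Hba-x, the embryonic zeta globin, fell from 162, 183, 227 and 243 NRPKM to 147, 127 and 140 (-0.54, SE 0.14, adjusted p = 0.0224; 0.0542 without Sox9cKO replicate 3, range over alternatives 0.000973 to 0.74). The other 2 embryonic globin genes, Hbb-bh1 and Hbb-y, were not called, and in both Sox9null replicates 3 and 4 were far above replicates 1 and 2: Hbb-y was at 408, 419, 688 and 766 NRPKM. None of 4 measured adult globin genes was called; Hbb-b2 was at 27.5 ± 10.7 (SD, n = 4) and 34.2 ± 4.40 NRPKM (SD, n = 3). Among 25 endothelial genes 3 were called higher, Tek by 0.37, Pecam1 by 0.27 and Aplnr by 0.19, and none lower (median 0.11); 1 was called without Sox9cKO replicate 1 or 2 or Sox9null replicate 1 or 2.

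Surface ectoderm genes were mixed, with 2 of 30 called higher, against 14.5% of all genes, and 1 lower, against 5.23% (median -0.14). Krt15 rose by 0.75 and Krt14, a basal keratin, by 0.42, from 27.2, 21.8, 22.2 and 22.9 to 33.7, 35.1 and 26.9 NRPKM, with overlapping ranges. Sp6, a transcription factor gene of the ridge, fell by 0.46. Fgf8, the main ridge FGF, was at 18.1, 12.0, 19.8 and 19.2 NRPKM in Sox9null and at 9.08, 8.97 and 13.1 in Sox9cKO and was not called (-0.68, adjusted p = 0.056). No gene of the list was called without Sox9cKO replicate 1 or 2.

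Shh and some genes of limb bud signalling fell, while most of their list was not called. In the ridge and SHH list, 6 of 29 genes were called lower, against 5.23% of all genes, and 2 higher (median -0.12). Shh was at 6.95, 3.62, 7.18 and 7.59 NRPKM in Sox9null and at 0.631, 0.621 and 4.32 in Sox9cKO. Replicate 3 of Sox9cKO lay within the Sox9null range and the other 2 far below it. The difference was -1.56 (SE 0.45, adjusted p = 0.0323), and -2.13 without replicate 3 (adjusted p = 0.00767; range over alternatives 0.00767 to 0.14). Gli1, a target of SHH, was lower too and went from 32.3, 32.8, 29.0 and 27.1 to 23.0, 20.2 and 25.6 NRPKM (-0.39, adjusted p = 0.0124). Ptch1, the receptor gene, was at 37.2 and 28.1 NRPKM in the means and was not called (adjusted p = 0.052). The FGF feedback gene Spry4 fell by 0.56, Cyp26b1, a retinoic acid degrading enzyme, by 0.35 and the receptor gene Fgfr1 by 0.27. In contrast Fgfr3, which is expressed in proliferating chondrocytes, rose from 5.46 ± 1.22 (SD, n = 4) to 9.63 ± 2.59 NRPKM (SD, n = 3), a difference of 0.71 (adjusted p = 0.0412), and Fgfr2 rose by 0.35. No gene of the list was called lower without Sox9cKO replicate 2, and 2 were without replicate 1.

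Some homeobox genes of position fell. Of 18 HoxA and HoxD genes, 8 were called lower, against 5.23% of all genes, and none higher (median -0.27). The count was 6 without Sox9cKO replicate 3, 5 without Sox9null replicate 2 and 4 without Sox9cKO replicate 1 or 2. Hoxd4 was at 7.52, 7.54, 9.44 and 9.75 NRPKM in Sox9null and at 4.03, 3.85 and 6.24 in Sox9cKO (-0.76, SE 0.17, adjusted p = 0.0114). Hoxd11, a gene of the forearm and lower leg domain, was at 26.1, 26.1, 24.6 and 23.7 and then at 17.9, 13.6 and 17.6 NRPKM (-0.60, SE 0.09, adjusted p = 0.00317). Both pairs of groups were apart. Hoxd3 and Hoxa3 fell by 0.70 and 0.68, and Hoxd10 by 0.42.

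In the limb identity list, 5 of 10 genes were called lower, against 5.23% of all genes, 4 of them in the HoxC cluster (median -0.43). The count was only 1 without Sox9cKO replicate 1 or 2. Hoxc8 was at 11.3, 7.54, 4.504 and 6.21 NRPKM in Sox9null and at 2.57, 2.88 and 3.81 in Sox9cKO (-0.99, SE 0.24, adjusted p = 0.0168). Hoxc6 fell by 0.93, Hoxc5 by 0.78 and Hoxc4 by 0.61. Sox9null replicate 1 was the highest library in all 4. Tbx4 fell by 0.22, from 50.9 ± 2.78 (SD, n = 4) to 43.6 ± 0.475 NRPKM (SD, n = 3), and Pitx1 was not called (-0.22, adjusted p = 0.151).

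Transcription factor genes of limb mesenchyme gave 2 rises and 4 falls among 38 measured members (median -0.20), against 14.5% higher and 5.23% lower over all genes. Without Sox9cKO replicate 1 or 2 there was no rise and 1 fall. Irx1, an Iroquois factor gene of the digit region, was at 1.18, 1.03, 0.742 and 0.804 NRPKM in Sox9null and at 12.51, 9.71 and 1.31 in Sox9cKO. Replicate 3 was just above the Sox9null libraries and the other 2 far above them (1.85, SE 0.50, adjusted p = 0.0248; 2.64 and adjusted p = 0.00129 without replicate 3, range over alternatives 0.00129 to 0.116). Pax9 rose by 0.88. Sall3 fell from 14.6, 14.0, 12.1 and 11.3 to 6.18, 5.66 and 8.42 NRPKM (-0.86, SE 0.17, adjusted p = 0.00834), and Sall4 by 0.51. Zbtb16, a proximal limb regulator outside that count, fell by 0.87.

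Some genes of early embryonic growth also fell. In the let-7 and LIN28 axis, let-7 microRNAs repress growth genes as the embryo matures. Of 15 measured genes of its list, 5 were called lower, against 5.23% of all genes, and none higher (median -0.27). The count was 1 without Sox9cKO replicate 1 or 2 and 3 without Sox9null replicate 1. The list includes the let-7 gene Mirlet7i, which was not called (-0.27). Trim71, a let-7 target, was at 16.2, 13.2, 16.8 and 15.4 NRPKM in Sox9null and at 10.4, 9.29 and 13.4 in Sox9cKO (-0.45, SE 0.14, adjusted p = 0.0383), with replicate 3 inside the Sox9null range. Hmga2, a chromatin protein gene, was at 44.5, 39.1, 36.3 and 35.1 and then at 25.9, 28.2 and 29.97 NRPKM (-0.45, SE 0.09, adjusted p = 0.00789). Lin28a itself was at 6.37 and 4.11 NRPKM in the means and was not called (adjusted p = 0.205). Igdcc3, among the 12 largest falls by the naming rule, went from 29.1, 23.4, 26.8 and 30.4 to 6.48, 8.99 and 16.4 NRPKM (-1.37, SE 0.34, adjusted p = 0.0177).

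Imprinted growth genes were called lower in 8 of 27 measured members, against 5.23% of all genes, and higher in 3, against 14.5% (median -0.14). After quantile normalization 4 were lower and 5 higher. Igf2, the fetal growth factor, was at 114, 117, 93.5 and 92.7 NRPKM in Sox9null and at 65.9, 68.3 and 68.4 in Sox9cKO (-0.61, SE 0.11, adjusted p = 0.00591). Mest was at 103, 99.9, 135 and 139 and then at 72.8, 76.2 and 86.9 NRPKM (-0.58, SE 0.16, adjusted p = 0.0269). The groups did not overlap for either. Peg10 fell by 0.52 and Dlk1 by 0.31, and Phlda2, a growth-limiting gene, rose by 0.86. Without Sox9cKO replicate 1, 2 or 3 the falls numbered 4, 5 and 6 and the rises 0, 1 and 3, and without Sox9null replicate 1 there was 1 rise.

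Both Igf2 and Mest hold a microRNA gene in an intron, and both microRNA genes fell. Mir335, 98 bases at chr6:30741299-30741396 on the plus strand inside Mest, was at 6.78, 7.52, 10.9 and 12.6 NRPKM in Sox9null and at 2.83, 1.79 and 3.88 in Sox9cKO (-1.45, SE 0.25, adjusted p = 0.00487). Mir483, 73 bases at chr7:142654924-142654996 on the minus strand inside Igf2, was at 13.3, 16.6, 11.2 and 8.62 and then at 6.18, 4.70 and 5.11 NRPKM (-1.06, SE 0.19, adjusted p = 0.00543). All Sox9cKO libraries were below all Sox9null libraries. Both were picked for the text once their values were known. The values rest on short stretches, and they measure reads over the precursor gene, host transcripts included, not the mature microRNA. A microRNA gene that went the other way was mmu-mir-196b, which lies in the HoxA cluster and was listed at 0 in all 7 E11.5 libraries and at 2.18 to 4.17 in all 6 E12.5 libraries of either genotype. The mature sequences of these genes from RefSeq on GRCm38.p6, with the seed (bases 2 to 8) in capitals, shared no seed.
mmu-miR-335-5p: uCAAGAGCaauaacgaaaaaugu
mmu-miR-335-3p: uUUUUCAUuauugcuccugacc
mmu-miR-483-5p: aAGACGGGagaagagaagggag
mmu-miR-483-3p: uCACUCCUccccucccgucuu
mmu-miR-196b-5p: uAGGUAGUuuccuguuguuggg
mmu-miR-196b-3p: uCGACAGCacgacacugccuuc

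**Figure D3:**
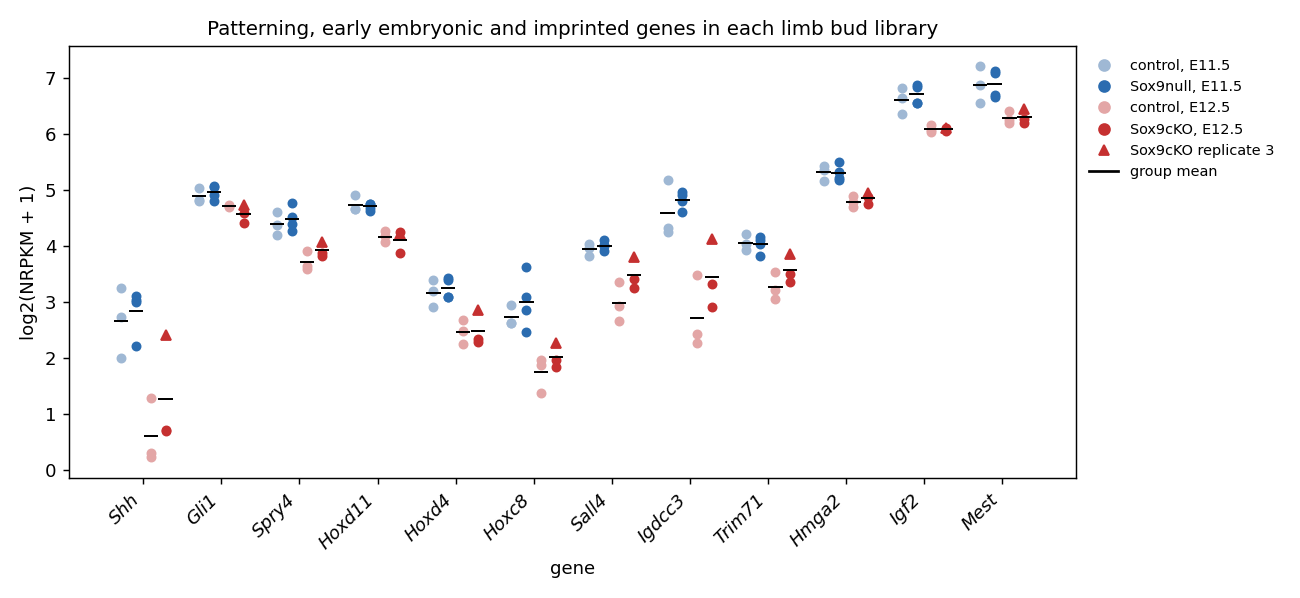
Each point is 1 library's log2(NRPKM + 1) for genes of posterior signalling, Hox genes, let-7 axis genes and imprinted genes, with Sox9cKO replicate 3 as triangles and group means as bars. For Shh replicate 3 was at 4.32 NRPKM, within the Sox9null range, while the other 2 Sox9cKO libraries were at 0.631 and 0.621.

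Genes of growth and basic metabolism moved by small amounts. Of 56 cell cycle genes 6 were called lower, against 5.23% of all genes, and none higher (median -0.08). Among the falls was Uhrf1, the replication-linked DNA methylation factor, from 51.4 ± 2.51 (SD, n = 4) to 40.2 ± 1.44 NRPKM (SD, n = 3). Its difference was -0.35 (adjusted p = 0.00302, limma). Tk1 fell by 0.28 and Mcm7, a helicase subunit gene, by 0.27. The glycolysis and hypoxia list gave 5 falls and 2 rises among 25 (median -0.03), and the falls were the enzymes Pkm (0.58), Ldha (0.44), Gapdh (0.36), Aldoa (0.34) and Gpi1 (0.33). The chaperone gene Hsp90ab1 fell from 172, 175, 207 and 198 to 119, 122 and 126 NRPKM (-0.62, SE 0.10, adjusted p = 0.00412). Its heat shock list did not move as a whole. Of 10 measured genes 2 were called lower, against 5.23% of all genes, and 0 higher. In that list 5 genes were above 0 and 5 below (median -0.05), with Hspa8 at 0.47. Against the Sox9null libraries of the set of 4 the cell cycle list had no rise and 28 falls (median -0.14), and against those of the set of 3 it had 21 rises and 13 falls (median 0.03). Over all 12880 genes there were 2443 rises and 2055 falls against the set of 4, and 5453 rises and 2049 falls against the set of 3. The cell cycle falls numbered 3, 1 and 2 without Sox9cKO replicate 1, 2 or 3. The glycolysis falls numbered 2, 2 and 3, and 2 without Sox9null replicate 3 or 4.

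Over all genes 14.5% were called higher and 5.23% lower. The 81 ribosomal protein genes (1 higher, 7 lower, median -0.24), 75 respiratory chain genes (none higher, 4 lower, median -0.09) and 69 histone genes (2 higher, 7 lower, median -0.26) depended on which E11.5 libraries served as the base. Against the Sox9null libraries of the set of 4 their medians were -0.47, -0.27 and -0.52, and against those of the set of 3 they were 0.00, 0.10 and 0.01. When 1 mutant library at a time was left out, the falls ranged from 0 to 14 for ribosomal, 2 to 8 for respiratory and 1 to 17 for histone genes, with the most without Sox9null replicate 1. Hist1h3c was at 29.5, 28.1, 42.8 and 44.3 NRPKM in Sox9null and at 18.4, 19 and 19.7 in Sox9cKO (-0.86, SE 0.14, adjusted p = 0.00341), and Hist1h2al fell by 0.95. For Hist1h3c both Sox9null sets were above Sox9cKO.

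**Figure D4:**
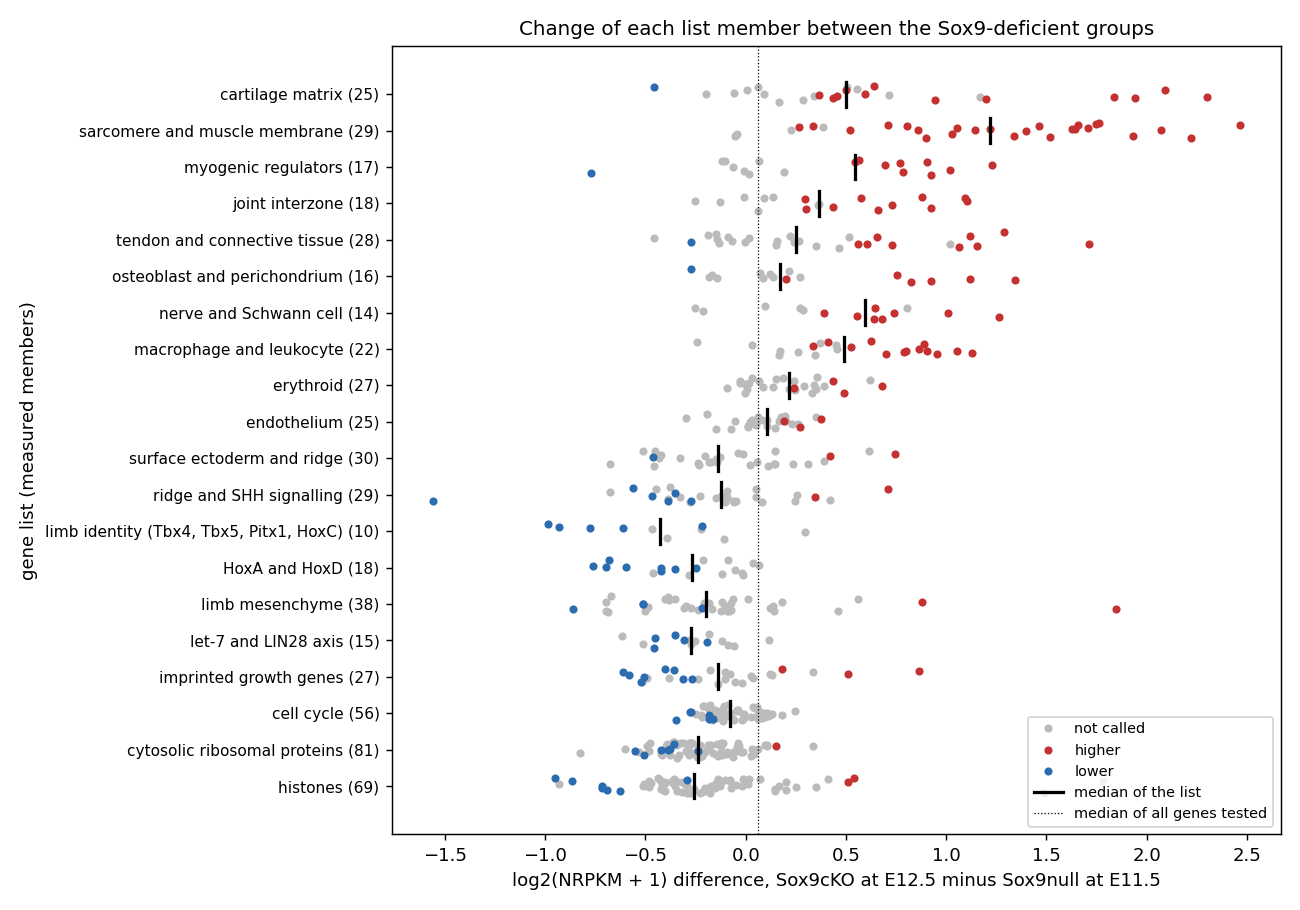
Each point is 1 gene's difference on the log2(NRPKM + 1) scale between Sox9cKO at E12.5 and Sox9null at E11.5, by gene list, coloured by whether limma called it at an adjusted p under 0.05; black bars are list medians and the dotted line is the median of all genes, 0.06. Structural muscle genes had the highest median, 1.22, of the lists drawn, and the limb identity list the lowest, -0.43.

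Beyond the lists, some genes among the 12 largest rises and falls by the naming rule were listed at or near 0 in whole groups. Msmp, a secreted microseminoprotein, was listed at 0 in all 4 Sox9null libraries and at 10.3, 10.9 and 11.9 NRPKM in Sox9cKO; the controls were at 0 in all 3 E11.5 libraries and at 10.9, 0 and 11.0 at E12.5. Fbxo44, an F-box protein gene, was at 0.218, 0.262, 0.270 and 0.350 and then at 5.77, 5.47 and 6.24 NRPKM (2.42, SE 0.54, adjusted p = 0.0121). Its controls were at 4.23, 0.349 and 5.99 at E11.5 and at 1.06, 0.958 and 6.68 at E12.5, so libraries of 1 genotype and age differed as widely as the mutant groups. Prl8a2, a gene of the prolactin family, went from at most 0.252 NRPKM to 12.1, 3.87 and 9.47 (3.00, SE 0.70, adjusted p = 0.0146), and was at 0.267, 1.51 and 18.7 in the E12.5 controls. Myo7a, an unconventional myosin, was at 1.77, 2.27, 1.69 and 2.09 and then at 12.7, 8.33 and 12.8 NRPKM, a difference of 2.03 (SE 0.14, adjusted p = 1.76e-05). The pseudogene Mrpl23-ps1 rose by 2.30.

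Among the 12 largest falls by that rule, 5 were copies of the U6 small nuclear RNA, whose reads cannot be assigned with certainty between near-identical copies (-1.42 to -1.88). Pcna-ps2, a pseudogene, was at 8.70, 7.76, 7.17 and 11.3 NRPKM in Sox9null and at 5.39, 0.200 and 0.318 in Sox9cKO (-2.15, SE 0.45, adjusted p = 0.00918). Hbb-bh0, a beta-globin pseudogene copy, was at 25.5, 28.0, 54.9 and 44.3 and then at 10.1, 7.33 and 8.55 NRPKM (-1.96, SE 0.30, adjusted p = 0.00302). Falls in protein-coding genes were those of Igdcc3, Cmah (-1.15), an enzyme of sialic acid synthesis, the receptor gene Tnfrsf22 (-1.14) and the neuropeptide gene Cort (-1.13), and AL807824.1 fell by 1.33.

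The control libraries, which are other embryos, were compared over the same day. Y-linked genes were expressed in all 3 E12.5 controls, with means of 22.7 to 23.8 NRPKM. At E11.5 they were expressed in control replicate 1 (20.4) and near 0 in replicates 2 and 3 (0.046 and 0.043). Sex and age were thus partly confounded in controls. In controls 2794 genes (21.7%) were called between E11.5 and E12.5, 2126 of them higher (16.5%) and 668 lower (5.19%), and 1786 were called in the same direction in both genotypes, which was 70.3% of the mutant and 63.9% of the control calls; 1 gene (0.00776%) was called in opposite directions. Only 4 genes (0.0311%) were called by limma for a difference between the mutant and the control change, and 393 (3.05%) had an unadjusted p under 0.05. The 4 became 11 without Sox9cKO replicate 1, 2 without replicate 3, and 1 without Sox9cKO replicate 2 or Sox9null replicate 2, 3 or 4. With sex as a term 2431 genes were called in controls and 3 for the difference of the changes. Replicate spread limits this test, and a gene that was not called is not shown to have changed equally. List medians in controls were 0.73 for cartilage, with 19 of 25 genes higher, 1.81 for structural muscle, with 27 of 29 higher, 0.59 for joints and -0.32 for HoxA and HoxD.

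In cartilage the changes of both genotypes stood side by side as follows. Acan differed by 0.28 in mutants and 2.64 in controls, Matn1 by 0.50 and 3.13, Extl1 by 0.28 and 1.78, and Mia1 by 0.09 and 1.54. All of these genes had means below 3 NRPKM in both mutant groups, so they are in the table through controls alone. That selection favours genes with a larger change in controls, and a call for such a gene is no independent support of a difference. Of these genes Mia1 alone had the difference of the changes called (-1.45, adjusted p = 0.0254; range over alternatives 0.0067 to 0.37); adjusted p was 0.311 for Acan, 0.587 for Matn1 and 0.0565 for Extl1. Col9a3 differed by 2.30 in mutants and 1.40 in controls, and Lect1 by 2.09 and 1.18, with adjusted p = 1 for the difference in both. Starting levels were unlike: Col9a3 had a mean of 2.33 NRPKM in Sox9null and 13.6 in E11.5 controls, and reached 15.7 in Sox9cKO and 36.5 in E12.5 controls.

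**Figure D5:**
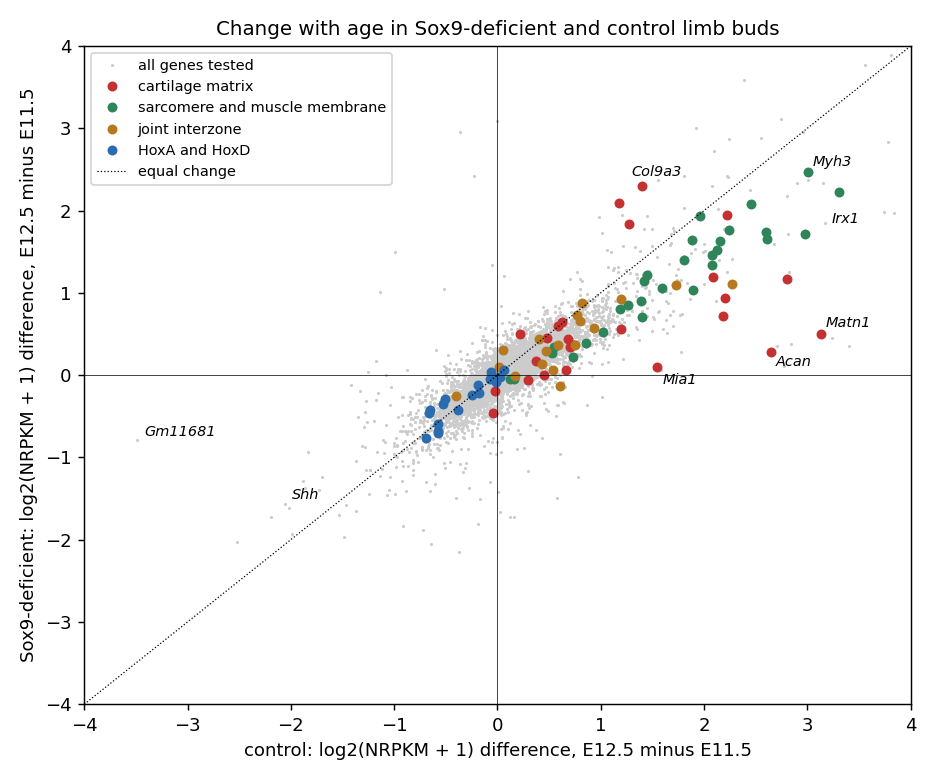
Each point is 1 gene, with its log2(NRPKM + 1) difference between E12.5 and E11.5 in controls on the x axis and in Sox9-deficient limb buds on the y axis; 4 gene lists are coloured and the dotted line marks equal change. All 29 structural muscle genes lie below the line, none of them called for the difference, Acan, Matn1 and Mia1 lie far below it, and Col9a3 lies above it.

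The other genes called for that difference were non-coding. Gm15181 and Gm16156 reached a mean of 3 NRPKM, the limit of the table, in Sox9cKO alone, which favoured a larger change in mutants in advance. Gm15181, an annotated pseudogene of 177 bases at chr1:75514107-75514283 on the minus strand, was listed at 0 in all 10 libraries other than Sox9cKO and at 6.22, 9.45 and 7.23 NRPKM there. Gm16156, an antisense gene, was at 2.17, 1.56, 1.83 and 1.63 in Sox9null, 6.46, 5.81 and 5.97 in Sox9cKO and 1.51 to 2.79 in controls; the use of strand in counting is not given, so reads of the gene on the other strand cannot be told apart from its own. Short RNA genes also separated the ages whatever the genotype: 4 genes, among them mmu-mir-196b, Mir1306 and 1 copy each of SNORA67 and SNORA48, were at 0 in all 7 E11.5 libraries and above 1 NRPKM in all 6 E12.5 libraries, and none showed the reverse.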

How the data were processed

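RNA of mouse limb buds was sequenced with standard Illumina libraries, per the labels' protocols. The authors deposited 1 table of normalized RPKM values (NRPKM) for 12880 genes, each with a mean of at least 3 in at least 1 group, per the file headers and values. Per the submitters' processing notes, CASAVA 1.8 and mm10 were used; no source used here gives the aligner, counting, strand or normalization. Other deposited columns (the authors' averages, standard deviations and p-values) were not used. Whole reads were not recovered, so depth is unknown and no counting interval is given. With the best-fitting step size of each library, 32.9% to 64.0% of short-gene values lay within 0.15 of a whole multiple. A step fixed beforehand would give 30% without whole reads. Because each step was picked for its fit, that share is no fair baseline and the check cannot decide.

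Values were taken as log2(NRPKM + 1) and fitted with limma 3.58.1 (R 4.3.3; trend, robust) as 4 group means over 13 libraries, with 9 residual degrees of freedom, contrasts between groups, and two-sided Benjamini-Hochberg adjusted p under 0.05 over all genes. The script was tested on simulated data. The genes named are Sox9, members of 39 lists, the 12 largest rises and falls (at least 3 NRPKM, no overlap of groups, predicted, Mir and Snor genes left out) and genes called in the interaction. The members and lists were chosen with earlier results of these data known. Alternatives varied libraries, pseudocount, filter, scaling, library set, sex and replicate block. Gene positions are from GENCODE M21 (12715 IDs matched), and promoters and miRNAs from RefSeq (GRCm38.p6). Some genes of the lists are counted but not reported here by name.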

Additional observations from a re-analysis of the deposited data

Results flagged for a closer look

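Single Sox9null libraries stood far from the other 3 in 8 of 166 named genes; chance alone flags about 1 in 20 groups. Replicate 2 was high for Lect1 (0.547 NRPKM, others 0.439 to 0.451), Tnnt2 (2.34, others 1.02 to 1.18), Matn4 (0.603, others 0.111 to 0.178), Col9a2 (9.21, others 5.73 to 5.90) and Dkk2 (15.9, others 12.4 to 12.9). It was low for Shh, at 3.62 NRPKM against 6.95 to 7.59. Replicate 1 was high for Chst11 (9.24, others 7.81 to 7.99), and replicate 3 was high for Nog (1.74, others 1.42 to 1.46).

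For 4 genes the change between the ages differed between mutants and controls in limma's interaction test. On the log2 scale the mutant change minus the control change was 3.09 for Gm15181, 2.70 for Gm11681, 1.39 for Gm16156 and -1.45 for Mia1. The lowest and highest adjusted p over the alternatives are given for Gm11681 and Mia1 with their values above. The causes of these differences were not tested. Gm15181 and Gm16156 are in the table through Sox9cKO alone, and Mia1 through controls alone.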

How the results depend on the processing

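The count of 2539 genes changed in mutants became 924 in a fit to the 7 mutant libraries alone, 6675 with the library set as a term, 4498 against the set of 4 and 7502 against the set of 3; leaving out 1 mutant library gave 708 to 2926. The 2794 genes changed in controls became 7132, 5546 and 6403 with the set as a term and against the sets of 4 and 3. The 4 genes with different changes became 1 with a replicate block, 2 with a pseudocount of 0.1, 2 with a filter of at least 5 NRPKM in 3 libraries, 8 and 2 against the sets of 4 and 3, and 1 to 11 with 1 library left out.

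Of 14 sign changes among named genes, 1 was of a called gene, Sox10 (-0.00375 by quantile normalization). The others were Mia1 (-0.55 by quantile normalization, -0.0065 against the set of 4), Extl1 (-0.22), Matn1 (-0.21) and Acan (-0.39) by quantile normalization, and 2 globin genes. Hbb-bh1 was at 0.087 by quantile normalization and 0.0002048 against the set of 3. Hbb-y was at 0.24 and 0.34 under the same settings, 0.097 with the replicate block, and 0.0022 to 0.097 without Sox9cKO replicate 2 or Sox9null replicate 3 or 4. The causes were not tested. Of 150 called genes named, 66 were called under all 20 alternatives.

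Replicate numbers were not shown to pair the samples. Deviations of same-numbered mutants correlated at -0.0114, 0.119 and 0.148 for replicates 1, 2 and 3, and those of unlike numbers at -0.166 to 0.0765. The highest value joined the mutant libraries with Y-linked expression. With the replicate block 2438 genes were called, 1952 of them shared. Leaving out genes with exons under 300 bases was chosen after seeing the data. The unknown depth limits what can be said of genes near 0.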

Other observations

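Some stress and cell cycle exit genes were called. Over all genes 14.5% were called higher and 5.23% lower, and several of the shares below are near these. Of 24 genes of p53 targets and apoptosis, 6 were called higher and 1 lower (median 0.09), with 3 higher without Sox9cKO replicate 1 or 2. Of 12 cell cycle inhibitors 3 were higher and none lower (median 0.17), though none without any 1 of the Sox9cKO libraries or without Sox9null replicate 2, 1 without Sox9null replicate 1 and 6 without Sox9null replicate 3. Among 22 immediate early genes 6 were higher and none lower (median 0.08), 1 without Sox9cKO replicate 1 and 0 without replicate 2. The Notch list had 3 rises and 1 fall in 18 genes, and 1 rise without Sox9cKO replicate 2 or with the 7 mutant libraries alone. The retinoic acid list had 2 rises and 1 fall in 14 genes. The innate and interferon list had 2 rises in 12 genes, and 1 without Sox9cKO replicate 2. Of 31 collagen genes of all types, 10 were higher and 3 lower (median 0.22), with 4 higher without Sox9cKO replicate 1 and 6 without replicate 2. The 9 keratin genes held 2 rises (median -0.17; 0 without Sox9cKO replicate 1 or 2), the 7 germline and early embryonic genes 1 fall, and none of 4 sex-linked genes was called.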
